A study of Mus musculus with 12 samples.

Results

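The 34 genes described here encode the clotting cascade and the enzymes that dissolve clots: the coagulation factors, the 3 fibrinogen chains, the natural anticoagulants, the enzymes of the vitamin K cycle, and plasminogen with its activators, receptor and inhibitors. They were picked by symbol, and the symbols were matched to the gene identifiers of the deposited counts through GENCODE M21. Of the 34 genes, 33 were found among the 47729 genes of the count tables, and all 33 passed the filter on low counts. The expression of *Klkb1* (plasma prekallikrein) was not analysed here. The RNA came from whole liver of 12 male C57BL/6 mice killed at week 9, 4 mice per group. Naive_vehicle mice were healthy and received vehicle. STAM_vehicle and STAM_treated mice had streptozotocin as neonates and a high fat diet from week 4 (the STAM model of non-alcoholic steatohepatitis, NASH), and were dosed by mouth from week 6 with vehicle or with 10 mg/kg of I-BET151, a small molecule inhibitor of BET bromodomain proteins, which bind acetylated chromatin. The vehicle of the STAM_vehicle mice was methylcellulose, while I-BET151 was suspended in a different cellulose carrier with Tween 80, so the drug and its carrier cannot be told apart. STAM_vehicle mice differ from Naive_vehicle mice in streptozotocin and diet together.

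Clotting starts when tissue factor (*F3*) meets factor VII in plasma, and runs through factors IX, X and V to thrombin (*F2*), which cuts fibrinogen into fibrin. Most of these proteins are secreted by hepatocytes, and several need a carboxylation that depends on vitamin K. Antithrombin (*Serpinc1*), heparin cofactor II (*Serpind1*), tissue factor pathway inhibitor (*Tfpi*) and the protein C system hold clotting back, and plasmin, made from plasminogen (*Plg*) by tissue-type (*Plat*) or urokinase-type (*Plau*) activator, breaks fibrin down. The receptors and activators of the system are made mainly by endothelial cells, macrophages and other non-parenchymal cells.

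The counts summed to between 34711229 and 53365596 per mouse. Levels are given as CPM (counts scaled to a common library size) of the TMM-normalized library, and differences as edgeR quasi-likelihood log2 fold changes ± SE from a fit of all 12 mice, with Benjamini-Hochberg adjustment over 16823 genes. The threshold was an adjusted p of at most 0.05 for STAM_vehicle against Naive_vehicle and of at most 0.1 for STAM_treated against STAM_vehicle. The 7 hepatocyte markers found in the files summed to between 64111 and 137400 CPM in 11 mice and to 24428 CPM in STAM_treated mouse 3. That library also stood apart in its TMM factor (1.61, against 0.770 to 1.11 in the other mice), in the share of its counts on mitochondrial genes (2.71%, against 4.51% to 7.30%) and in *Neat1*, a nuclear RNA (3974 CPM, against 581 to 1650 CPM). The members and gene lists were therefore also fitted without it. The study's methods left out an I-BET151 sample that they do not name, and all 4 were used here. The files' names give the sequencing lane, and lanes are spread unevenly over the groups.

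Per kb of exon, the members differed widely in Naive_vehicle mice. The 3 fibrinogen chains were highest, with group means of 1230 (*Fga*), 971 (*Fgg*) and 811 (*Fgb*) CPM per kb. *Plg* followed with 714, kininogen (*Kng1*) with 587 and histidine-rich glycoprotein (*Hrg*), a plasma protein that binds heparin and plasminogen, with 566 CPM per kb. Thrombin's precursor stood at 321 CPM per kb and antithrombin at 222. The exon length joins all annotated exons of a gene (4594 bases for *F2*, 8546 for *Serpinc1*). A transcript that uses only part of them would have a higher level per kb of its own length. The 9 lowest members, all under 3 CPM per kb, lay apart from the rest. In falling order they were thrombomodulin (*Thbd*, 2.65), *F3* (1.92), *F8* (1.64), *Tfpi* (1.17), von Willebrand factor (*Vwf*, 0.955), *Plau* (0.907), the endothelial protein C receptor (*Procr*, 0.418), the urokinase receptor (*Plaur*, 0.290) and *Plat* (0.142). Between them and the next member upwards, gamma-glutamyl carboxylase (*Ggcx*, 17.6 CPM per kb), there was a gap. Neighbours in this order need not differ beyond their spread. *Fgb* and *Plg*, with exons of similar length (3810 and 3711 bases), ranged from 2829 to 3554 and from 2394 to 3085 CPM over the 4 mice. In bulk liver, fewer cells of a type and less RNA per cell cannot be told apart.

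**Figure D1:**
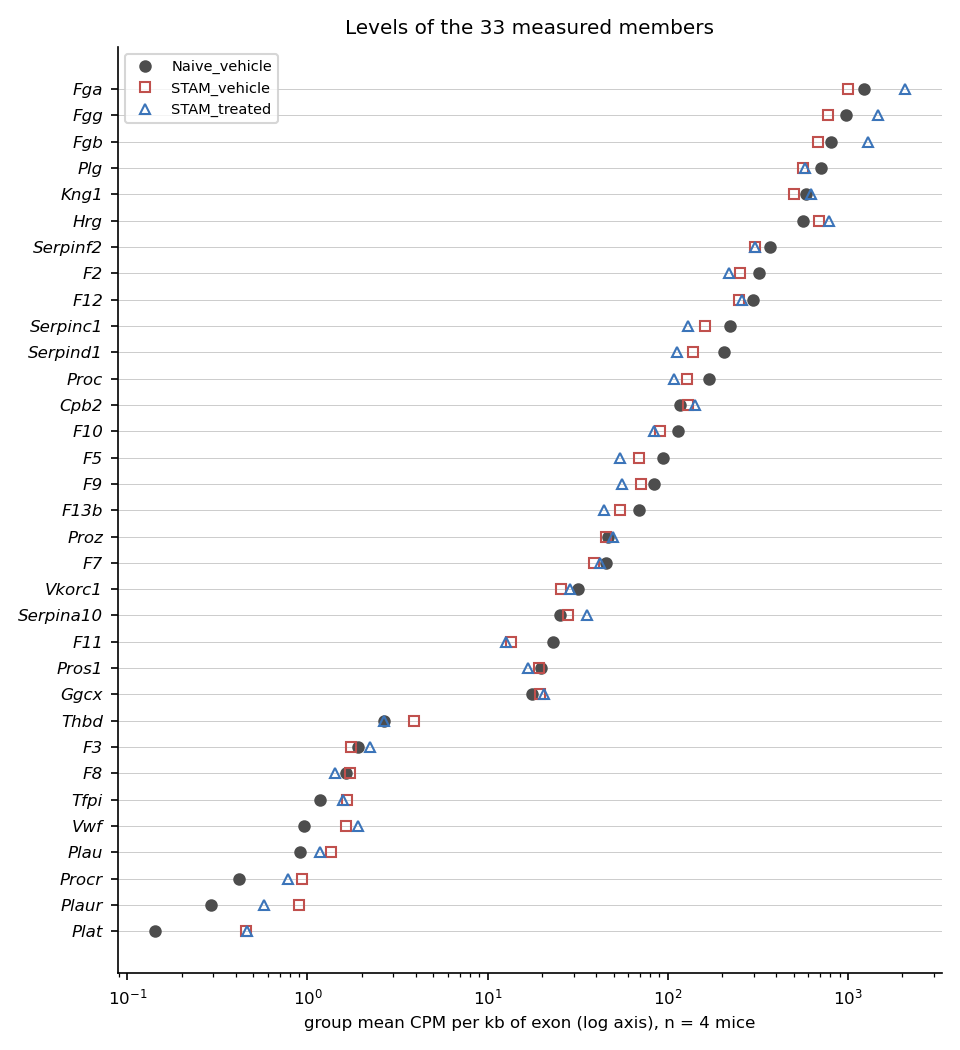
Group mean level of each of the 33 measured members in CPM per kb of exon (log axis, n = 4 mice per group), ordered by the Naive_vehicle mean. The fibrinogen chains lie at the top, with Naive_vehicle means of 811 to 1230, and the 9 lowest members lie under 3 in Naive_vehicle, below a gap.

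The comparison of STAM_vehicle with Naive_vehicle asks what the model alone did. The activator *Plat* and the receptor *Plaur* rose, 3.19-fold and 3.04-fold. No member fell past the threshold in the 12-mouse fit, although most liver-made factors had lower means in STAM_vehicle. The 2 members called higher are 6.06% of 33, beside 5.72% of all genes tested, and the 0 members called lower stand beside 1.38% of all genes. At an unadjusted p under 0.05, 6 members were higher, beside 15% of all genes, and 2 lower, beside 7.3%. DESeq2 called 3 members higher, beside 7.36% of all genes, and 2 lower, beside 2.59%.

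*Plat* (8:22757727-22782844, GRCm38, plus strand) encodes tissue-type plasminogen activator. It measured 1.15, 0.874, 0.640 and 0.891 CPM in Naive_vehicle mice 1 to 4, and 1.97, 2.95, 3.25 and 3.23 CPM in STAM_vehicle mice 1 to 4. The groups did not overlap, and these levels rested on 22 to 54 counts in healthy and 82 to 168 counts in diseased livers. The log2 fold change was 1.67 ± 0.27 (adjusted p = 0.00315). The call held in each of 12 edgeR fits that left out a mouse. In lane 2, the only lane holding both groups, STAM_vehicle mouse 4 was above Naive_vehicle mouse 1 by 1.45 on the log2 scale. With lane in the model the value was 1.74 (adjusted p = 0.112).

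*Plaur* (7:24462484-24475968, plus strand) encodes the receptor that holds urokinase at the cell surface. It measured 1.38, 0.583, 0.581 and 0.489 CPM in Naive_vehicle mice, and 1.39, 1.70, 3.79 and 2.48 CPM in STAM_vehicle mice. Naive_vehicle mouse 1 was as high as the lowest diseased mouse, STAM_vehicle mouse 1, and the groups were separated only by this narrow margin. The log2 fold change was 1.60 ± 0.38 (adjusted p = 0.0231). The call was lost without Naive_vehicle mouse 2, 3 or 4 or STAM_vehicle mouse 3 or 4, with adjusted p between 0.0593 and 0.0884. Blocking on the replicate number gave an adjusted p of 0.0636, and lane in the model gave 0.482. The activator that binds this receptor, *Plau*, measured 3.09, 2.12, 1.51 and 1.87 CPM in healthy and 2.69, 2.86, 3.56 and 3.73 CPM in diseased livers. Its groups overlapped (0.57 ± 0.25, adjusted p = 0.196).

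Macrophage markers moved in the same comparison. All 12 had higher means in STAM_vehicle and 6 of them passed the threshold (*Adgre1*, *Cd68*, *Clec4f*, *Marco*, *Trem2* and *Gpnmb*). Their summed level was 209 to 303 CPM in healthy and 353 to 671 CPM in diseased livers, highest in STAM_vehicle mouse 3, the mouse with the highest *Plaur*. The 6 neutrophil markers summed to 2.99 to 4.83 and 5.41 to 13.4 CPM, with 1 of 4 tested called (*Csf3r*). Without STAM_treated mouse 3, 9 of the 12 macrophage and 3 of the 4 neutrophil markers passed. The part of these cells in the *Plat* and *Plaur* values was not tested.

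Among the receptors and vessel-wall members, *Procr* came nearest to the threshold. This receptor presents protein C for activation. It measured 1.32, 0.344, 0.814 and 0.920 CPM in healthy and 1.71, 1.47, 2.69 and 1.70 CPM in diseased livers, without overlap (1.14 ± 0.33, adjusted p = 0.0548). *Tfpi*, which blocks the tissue factor and factor VII complex, measured 6.94, 6.25, 6.31 and 6.01 against 8.39, 8.49, 10.5 and 8.68 CPM, also without overlap (0.50 ± 0.17, adjusted p = 0.0855). *Vwf*, the carrier of factor VIII that tethers platelets, measured 25.3, 13.5, 9.83 and 12.7 against 23.8, 20.95, 29.3 and 31.2 CPM, where Naive_vehicle mouse 1 lay within the diseased range (0.78 ± 0.28, adjusted p = 0.113). Without that mouse, *Vwf* passed (1.14, adjusted p = 0.0162), as did *Procr* (1.45, adjusted p = 0.0264). Over all edgeR fits that left out a mouse, the adjusted p went up to 0.298 for *Vwf* and 0.1825 for *Procr*. *Thbd*, which turns thrombin into an activator of protein C, measured 15.9, 10.1, 6.72 and 6.81 against 16.4, 12.02, 13.97 and 15.9 CPM, and overlapped (0.56 ± 0.32, adjusted p = 0.330). *F3* measured 4.02, 5.83, 5.06 and 4.49 against 4.88, 3.87, 4.86 and 3.97 CPM and did not pass (-0.14 ± 0.27, adjusted p = 0.806).

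Naive_vehicle mouse 1 had the highest *Procr*, *Thbd*, *Vwf*, *Plaur*, *Plau* and *Plat* of the 4 healthy mice. Its 10 endothelial markers summed to 698 CPM, against 449 to 518 CPM in the other healthy mice. None of these 10 markers passed the threshold between the groups by edgeR with 12 mice, *Lyve1* passed as higher without STAM_treated mouse 3, and their sums were 483 to 601 CPM in STAM_vehicle mice. The part of endothelial content in these 6 members was not tested.

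**Figure D2:**
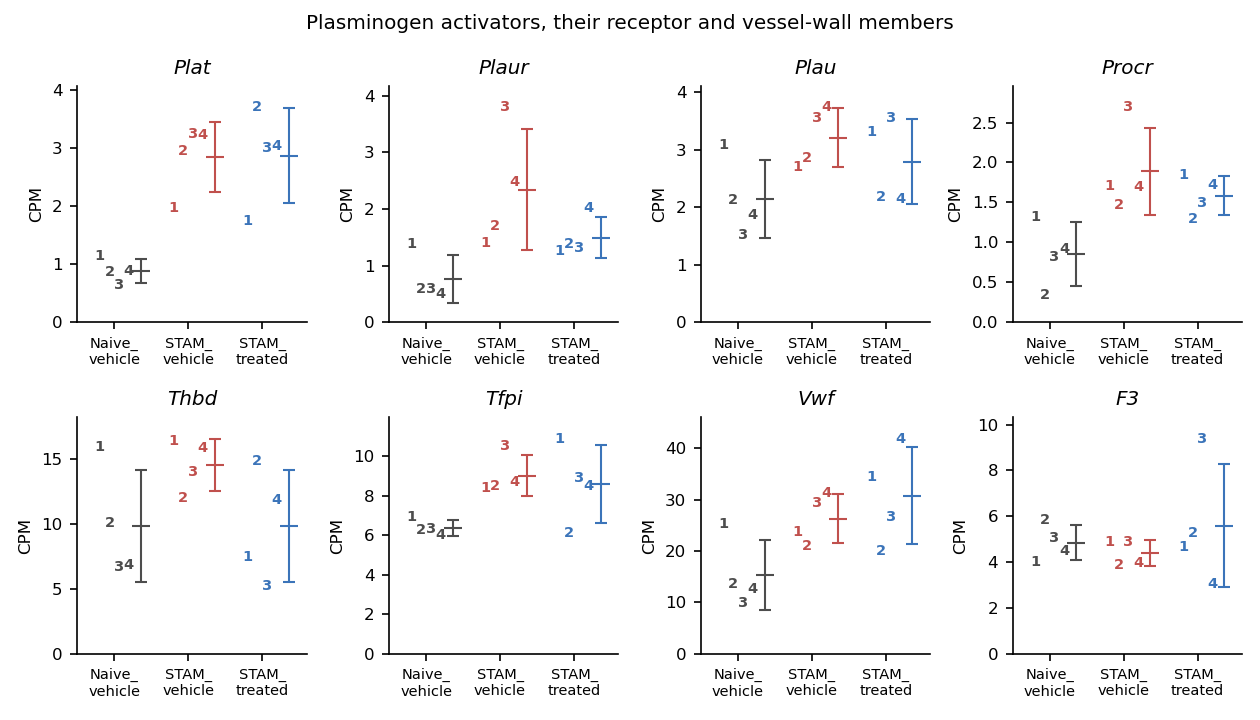
CPM of 8 low members in each mouse (digits are the mouse numbers of the labels), with the group mean ± SD beside them (n = 4 mice). For Plat, every STAM_vehicle mouse (1.97 to 3.25 CPM) lies above every Naive_vehicle mouse (0.640 to 1.15 CPM), and for Vwf and Plaur Naive_vehicle mouse 1 lies near or within the STAM_vehicle range.

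Most liver-made members leaned the other way. All 7 vitamin K-dependent factors and all 4 clot substrates had lower means in STAM_vehicle. So did 21 of 33 members, *F3* among them, against 49.1% of all genes. *Hrg*, *Cpb2*, *Serpina10* and *Ggcx* had higher means. With library totals in place of TMM factors, 13 of 33 members were lower, against 17.8% of all genes, and 8 members changed sign (*F3*, *F7*, *F9*, *F12*, *Kng1*, *Fgb*, *Pros1* and *Proz*). The members' median was -0.22 beside 0.01 for all genes with TMM, and 0.05 beside 0.28 with library totals, so that on both scales it lay 0.23 under the median of all genes. With lane in the model the members' median was 0.07 beside 0.03 for all genes. There 11 of 33 members were lower, against 46.6% of all genes. Beside these members, 6 of the 7 hepatocyte markers had lower means in STAM_vehicle. None passed the threshold by edgeR with 12 mice, and 4 fell without STAM_treated mouse 3 (*Alb*, *Ttr*, *Apoa1* and *Apob*). Those markers' sums were 114420 to 137400 CPM in healthy and 64111 to 88884 CPM in diseased livers.

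Antithrombin (*Serpinc1*) measured 1758, 1919, 2048 and 1855 CPM in healthy and 1309, 1515, 1238 and 1458 CPM in diseased livers, which did not overlap. The difference was -0.46 ± 0.24 (adjusted p = 0.278), and its exons overlap *Zbtb37* on the opposite strand over 2942 bases. *Serpind1*, a second inhibitor of thrombin, measured 405, 419, 486 and 487 against 290, 323, 276 and 326 CPM, again without overlap (-0.56 ± 0.27, adjusted p = 0.248). Prothrombin (*F2*) measured 1373, 1463, 1644 and 1426 against 1021, 1225, 1184 and 1201 CPM without overlap (-0.35 ± 0.25, adjusted p = 0.453). *F11*, the contact factor that activates factor IX, had the largest negative value: 37.3, 44.7, 65.1 and 58.3 CPM against 29.4, 30.6, 19.3 and 41.4 CPM (-0.77 ± 0.27, adjusted p = 0.107). Its groups overlapped through STAM_vehicle mouse 4, and within lane 2 that mouse was above Naive_vehicle mouse 1 by 0.15 on the log2 scale. DESeq2 called *F11* (adjusted p = 0.0446).

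STAM_treated mouse 3 entered these values only through the spread, scaling and filter shared by all 12 mice. Without it, 4 members passed as higher (*Plat*, *Plaur*, *Procr* and *Tfpi*) and 7 as lower (*F2*, *F10*, *F11*, *F13b*, *Serpinc1*, *Serpind1* and *Proc*). The 7 are 21.2% of 33, beside 10.3% of all genes called lower in that fit, and the 4 are 12.1%, beside 12% called higher. In that fit *Serpind1* stood at -0.59 ± 0.12 (adjusted p = 0.00672), *Serpinc1* at -0.48 ± 0.12 (adjusted p = 0.0130), *F11* at -0.79 ± 0.21 (adjusted p = 0.0208) and *Tfpi* at 0.48 ± 0.16 (adjusted p = 0.0437). *Proc*, the protein C precursor, had group means of 421 ± 18.8 and 316 ± 35.8 CPM (SD, n = 4) and an adjusted p of 0.0176. *F10*, the factor that cuts prothrombin, had 312 ± 28.3 and 246 ± 27.2 CPM, and *F13b*, the carrier subunit of the fibrin-crosslinking factor XIII, 176 ± 26.3 and 138 ± 11.5 CPM.

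The other liver-made members named by the rule did not pass with or without that mouse by edgeR. *F5*, the cofactor of factor X, measured 428, 799, 906 and 668 against 529, 503, 535 and 483 CPM (-0.45 ± 0.30, adjusted p = 0.412). *F7* measured 84.4, 81.8, 81.7 and 89.0 against 70.65, 81.25, 60.8 and 76.3 CPM (-0.22 ± 0.13, adjusted p = 0.336). *F9*, lacking in haemophilia B, measured 163, 228, 302 and 225 against 203, 204, 185 and 183 CPM (-0.25 ± 0.29, adjusted p = 0.665). *Plg* measured 2394, 2514, 3085 and 2602 against 1915, 2450, 1708 and 2272 CPM (-0.34 ± 0.34, adjusted p = 0.599). Naive_vehicle mouse 3 was the highest healthy mouse for *F5*, *F9* and *Plg*, while mouse 1 was the lowest for all 3. The remaining members had adjusted p between 0.409 and 0.949 in the 12-mouse fit.

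These remaining members are given as CPM means ± SD (n = 4) in Naive_vehicle, STAM_vehicle and STAM_treated mice. Factor XII (*F12*), which starts the contact pathway, had 582 ± 40.3, 486 ± 30.2 and 505 ± 104 CPM. Antiplasmin (*Serpinf2*), the main inhibitor of plasmin, had 864 ± 40.3, 713 ± 75.5 and 713 ± 304 CPM. Both had lower values in every STAM_vehicle mouse than in any Naive_vehicle mouse. Protein S (*Pros1*), the cofactor of protein C, had 81.4 ± 23.3, 79.1 ± 6.88 and 68.7 ± 27.8 CPM, and protein Z (*Proz*) 259 ± 19.2, 252 ± 22.7 and 274 ± 30.6 CPM. Factor VIII (*F8*), the cofactor of factor IX, had 16.3 ± 3.26, 17.2 ± 3.18 and 14.03 ± 3.21 CPM. The groups overlapped for these 3 genes. Of the vitamin K cycle, *Ggcx* had 57.2 ± 2.77, 63.2 ± 5.12 and 66.5 ± 18.7 CPM, and *Vkorc1*, the reductase that warfarin blocks, 26.7 ± 2.55, 21.5 ± 3.49 and 24.2 ± 8.09 CPM. *Kng1* had 1906 ± 170, 1632 ± 237 and 2037 ± 1284 CPM, *Hrg* 1128 ± 137, 1380 ± 134 and 1571 ± 939 CPM, *Cpb2* 191 ± 29.1, 212 ± 24.2 and 232 ± 162 CPM, and *Serpina10* 88.2 ± 7.24, 98.2 ± 15.7 and 125 ± 76.9 CPM. The SD was largest in STAM_treated mice in every gene of this paragraph except *F8*.

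**Figure D3:**
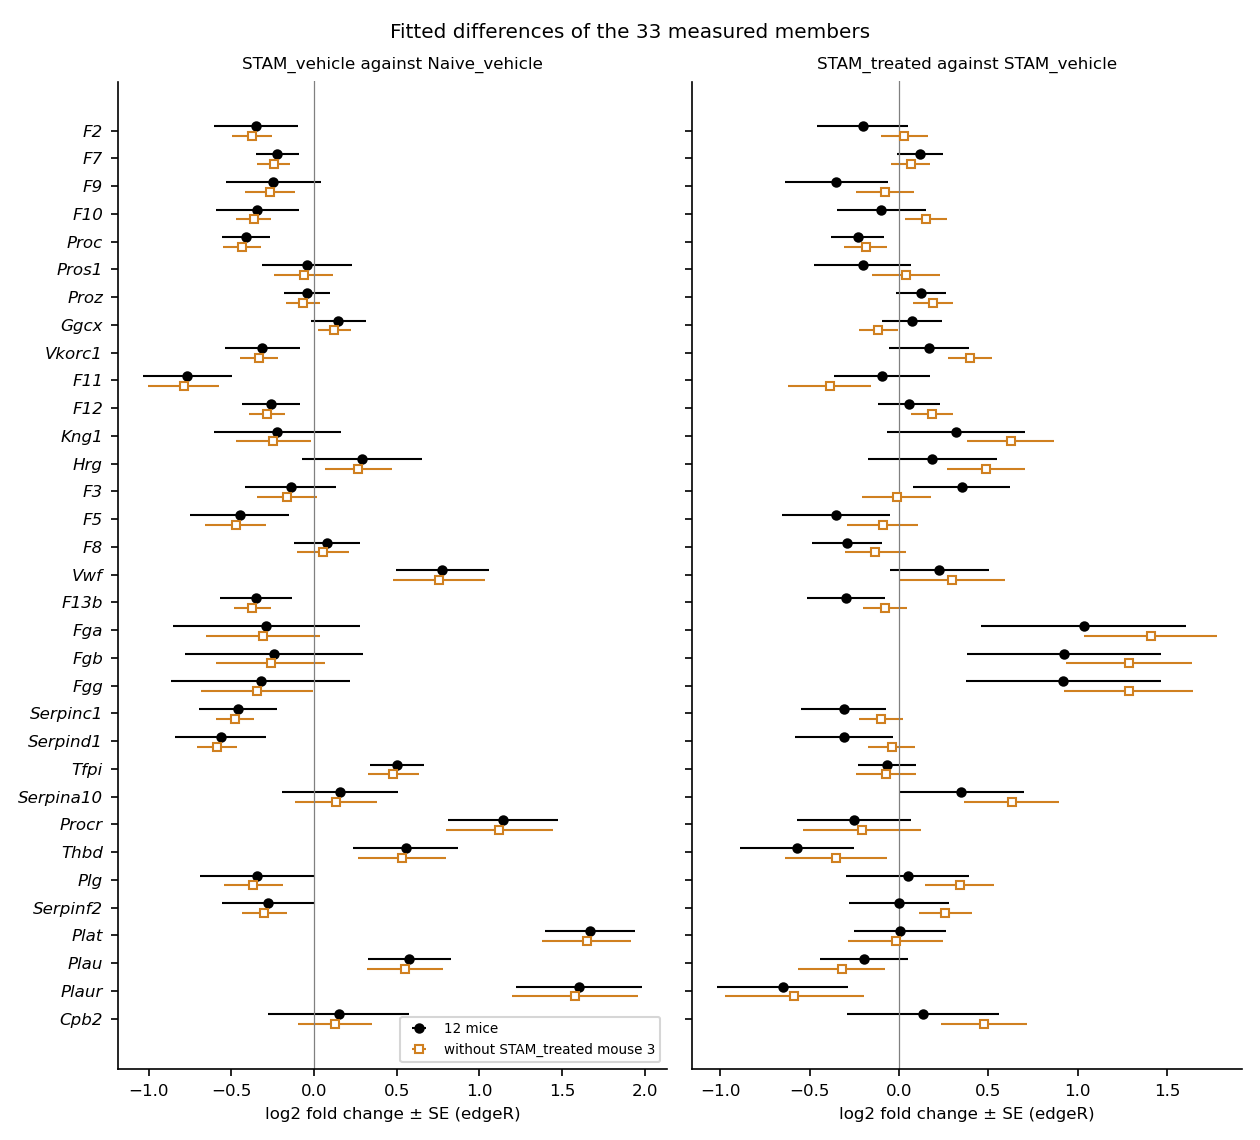
Log2 fold change ± SE (edgeR) of the 33 measured members, grouped by role, for STAM_vehicle against Naive_vehicle (left) and STAM_treated against STAM_vehicle (right), with 12 mice (black circles) and without STAM_treated mouse 3 (orange squares). On the left, Plat (1.67) and Plaur (1.60) stand highest and F11 (-0.77) lowest, and on the right the fibrinogen chains stand highest (0.92 to 1.03).

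In STAM_treated against STAM_vehicle livers no member passed the threshold with 12 mice. By edgeR 0 members were higher, beside 0.0951% of all genes, and 0 lower, beside 0.256% of all genes. At an unadjusted p under 0.05 there were also 0 in each direction, beside 4.42% of all genes higher and 4.26% lower, and DESeq2 called 0 members, beside 0.525% higher and 0.972% lower. The highest values were those of the 3 fibrinogen chains, and the mice within STAM_treated were far apart. The members' median was 0.0014 beside 0.02 for all genes.

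Fibrinogen is a dimer of 3 chains whose genes lie next to each other on chromosome 3 (GRCm38): *Fgg* at 83007724-83015049 and *Fga* at 83026076-83033627 on the plus strand, and *Fgb* at 83040141-83049863 on the minus strand. The bases from 250 before each RefSeq start are shown because the chains moved together in each mouse. They are from RefSeq (GRCm38.p6), 5′ to 3′ along the gene's strand. Capitals mark matches on either strand to the 3 motifs GTTAAT (named for HNF1), TTGCNNAA (C/EBP, N being any base) and CTGGGA (the IL-6 response element), which do not overlap each other here. The RefSeq start of *Fga* lies 77 bases inside the gene as GENCODE gives it, so its sequence is printed only up to the GENCODE start, while the search covered all 250 bases.
Fgg, chr3:83007474-83007723, plus strand: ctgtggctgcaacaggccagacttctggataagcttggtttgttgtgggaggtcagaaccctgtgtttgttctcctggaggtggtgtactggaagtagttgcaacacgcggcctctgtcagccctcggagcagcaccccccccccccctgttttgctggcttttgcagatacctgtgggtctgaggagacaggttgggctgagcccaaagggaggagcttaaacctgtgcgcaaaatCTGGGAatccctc
Fga, chr3:83025903-83026075, plus strand: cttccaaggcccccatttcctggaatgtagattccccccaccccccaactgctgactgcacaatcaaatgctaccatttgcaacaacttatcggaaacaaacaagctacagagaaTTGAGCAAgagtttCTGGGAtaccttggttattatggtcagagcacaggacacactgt
Fgb, chr3:83049864-83050113, minus strand: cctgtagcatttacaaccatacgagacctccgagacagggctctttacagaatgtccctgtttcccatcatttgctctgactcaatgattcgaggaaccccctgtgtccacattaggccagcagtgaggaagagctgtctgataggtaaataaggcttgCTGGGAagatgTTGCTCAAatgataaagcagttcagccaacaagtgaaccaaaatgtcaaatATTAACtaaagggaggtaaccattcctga

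Within the 250 bases, *Fga* and *Fgb* each held all 3 motifs and *Fgg* held CTGGGA. The CTGGGA match began 121 bases before the start in *Fga*, 91 in *Fgb* and 13 in *Fgg*. The C/EBP letters began 135 bases before the start in *Fga* and 80 in *Fgb*, and the HNF1 letters 43 and 29. In *Fga* the HNF1 letters fall within the 77 bases that are not printed, and all distances are from the RefSeq start. Among the 26 members with a RefSeq promoter, 10 held CTGGGA, 9 the C/EBP letters and 4 the HNF1 letters. In all 27025 promoters the same windows held these motifs in 26.8%, 9.55% and 6.52%. Of the other motifs searched, CAAAGT (HNF4) was found in 8 of the 26 and in 12.5% of all, TGTTTGC (HNF3) in 1 and in 4.30%, and CACGTG (E-box) in 0 and in 6.05%.

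*Fga* measured 3627, 3468, 4038 and 3679 CPM in Naive_vehicle mice, 2392, 3122, 3328 and 3290 CPM in STAM_vehicle mice, and 7671, 2719, 861 and 13592 CPM in STAM_treated mice 1 to 4. *Fgb* measured 2928, 2829, 3554 and 3042 CPM, then 2152, 2656, 2858 and 2784 CPM, and 6074, 2328, 794 and 10613 CPM. *Fgg* measured 1994, 1879, 2246 and 2014 CPM, then 1327, 1663, 1746 and 1765 CPM, and 3726, 1371, 491 and 6709 CPM. In each chain, STAM_treated mice 1 and 4 lay above all healthy and vehicle mice, mouse 3 lay below all of them, and mouse 2 lay within the STAM_vehicle range.

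The log2 fold change of *Fga* was 1.03 ± 0.57 (adjusted p = 0.658), that of *Fgb* 0.92 ± 0.54 (adjusted p = 0.681) and that of *Fgg* 0.92 ± 0.54 (adjusted p = 0.683). The coefficient of variation of *Fga* was 6.503% in Naive_vehicle, 14.4% in STAM_vehicle and 91.8% in STAM_treated mice. Summed over the chains, fibrinogen RNA in STAM_treated mice 1 to 4 was 2.40, 0.883, 0.295 and 4.25 times the STAM_vehicle mean of 7271 ± 957 CPM (SD, n = 4). The chains kept nearly the same proportions meanwhile. The ratio of *Fga* to *Fgb* per kb of exon was between 1.37 and 1.62 over the 12 mice, and that of *Fgg* to *Fgb* between 1.07 and 1.24.

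Without STAM_treated mouse 3, *Fga* stood at 1.41 ± 0.37 and passed narrowly by edgeR (adjusted p = 0.09995), while *Fgb* (1.29 ± 0.35, adjusted p = 0.108) and *Fgg* (1.29 ± 0.36, adjusted p = 0.110) did not. That 1 member is 3.03% of 33, beside 0.914% of all genes called higher in that fit, and 0 members were lower, beside 1.46%. DESeq2 without the mouse called 5 members higher, *Fga*, *Fgb*, *Fgg*, *Kng1* and *Vkorc1* (15.2%, beside 4.12% of all genes), with adjusted p of 0.00354, 0.00628, 0.00872, 0.0986 and 0.0764. Leaving out STAM_treated mouse 4 instead brought *Fga* to 0.31. Treated and vehicle mice shared 3 lanes, with 1 mouse of each group per lane. There *Fga* differed by 1.68 (lane 6), 2.05 (lane 2) and -1.95 (lane 7, which holds STAM_treated mouse 3).

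Other secreted members varied in a similar way over the treated mice, and they are singled out here after their values were seen. *Kng1* measured 2356, 1497, 642 and 3652 CPM in STAM_treated mice 1 to 4, against 1289 to 1797 CPM in STAM_vehicle. Its near-identical copy *Kng2*, not a member, measured 380, 236, 144 and 559 CPM in the same mice. Whether reads were wrongly split between the copies was not tested, so the *Kng1* count may be uncertain. *Hrg* measured 1702, 1293, 517 and 2770 CPM against 1223 to 1544 CPM. *Cpb2*, which encodes the fibrinolysis inhibitor TAFI, measured 274, 170, 50.5 and 433 CPM against 181 to 240 CPM, and *Serpina10*, the protein Z-dependent inhibitor, 203, 71.7, 47.5 and 178 CPM against 76.8 to 112 CPM. *Plg* measured 2474, 2052, 769 and 3337 CPM against 1708 to 2450 CPM in STAM_vehicle (0.05 ± 0.34, adjusted p = 0.987). In these 5 members, mice 1 and 4 were the highest of the treated mice and mouse 3 the lowest.

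The acute-phase list, 21 genes with no member among them, varied over the same mice. It summed to 21883, 10089, 4532 and 38856 CPM in STAM_treated mice 1 to 4, against 10220 to 16214 CPM in STAM_vehicle and 10519 to 12776 CPM in Naive_vehicle. None of its 20 tested genes passed the threshold for I-BET151 by edgeR, 17 of them having higher means, with a list median of 0.52 beside 0.02 for all genes. Without STAM_treated mouse 3, 3 of the 20 were higher (*Saa2*, *Apcs* and *Crp*), beside 0.914% of all genes. The list median in that fit was 0.74 beside 0.0042 for all genes. Against Naive_vehicle, 2 were called higher in STAM_vehicle, *Orm3* (2.98, adjusted p = 0.00181) and *Lcn2* (3.43, adjusted p = 0.0381). In that comparison 5.72% of all genes were called higher. Without STAM_treated mouse 3, 5 of the 20 were higher in STAM_vehicle (*Saa1*, *Saa2*, *Orm2*, *Orm3* and *Lcn2*), beside 12% of all genes. *Crp* was lower in that fit, beside 10.3% of all genes. The part of an acute-phase state in the fibrinogen values was not tested.

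**Figure D4:**
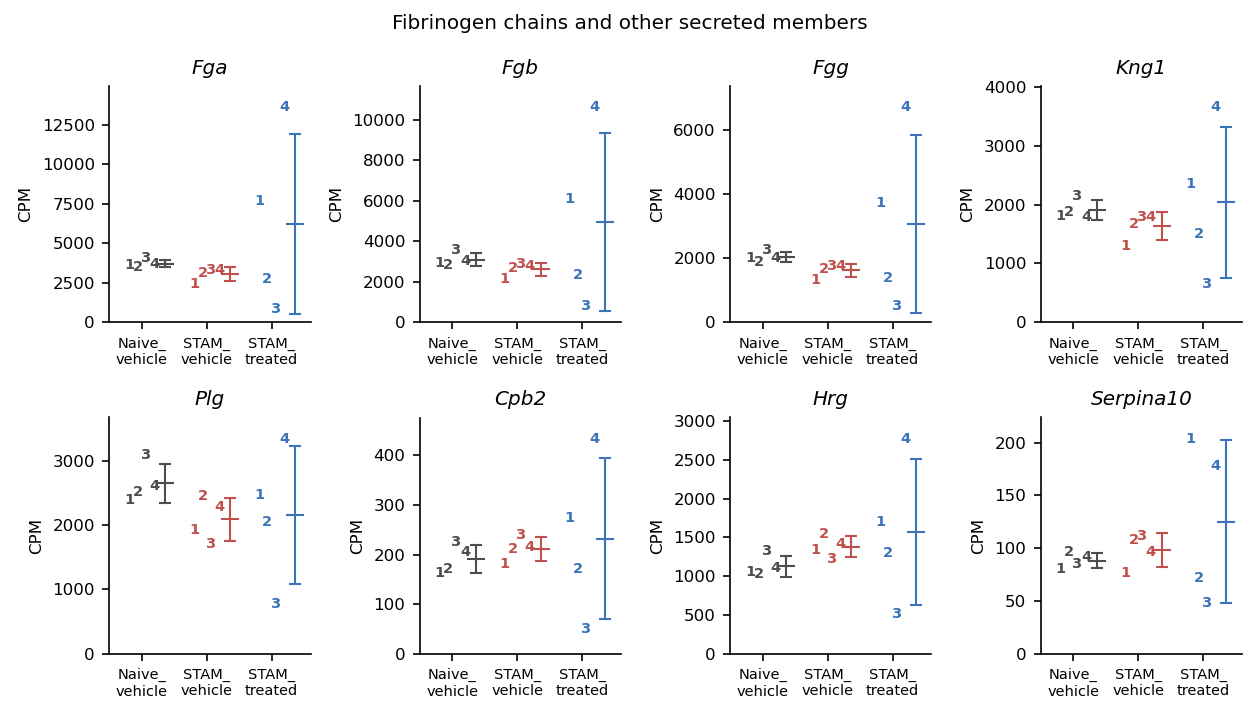
CPM of the fibrinogen chains and 5 other secreted members in each mouse (digits are the mouse numbers), with the group mean ± SD beside them (n = 4 mice). STAM_treated mouse 3 is the lowest of all 12 mice in each panel, and for Fga mice 1 (7671 CPM) and 4 (13592 CPM) lie above all others.

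Other liver-made members differed in whether they shared the high values of mice 1 and 4. *Serpinf2* (1.14 and 1.45 times the STAM_vehicle mean), *Proz* (1.22 and 1.15), *Vkorc1* (1.28 and 1.41) and *Pros1* (1.06 and 1.22) lay above the STAM_vehicle range in both mice. *F2*, *F7*, *F10* and *F12* lay above it in mouse 4 but not in mouse 1. Prothrombin measured 1076, 1130, 498 and 1318 CPM in STAM_treated mice (-0.20 ± 0.25 against STAM_vehicle, adjusted p = 0.888), antithrombin 1238, 1310, 619 and 1288 CPM (-0.31 ± 0.24, adjusted p = 0.786) and *Serpind1* 255, 353, 103 and 272 CPM (-0.31 ± 0.27, adjusted p = 0.818). *F5* measured 496, 475, 172 and 464 CPM (-0.35 ± 0.30, adjusted p = 0.812), and *F9* 180, 168, 61.4 and 199 CPM (-0.35 ± 0.29, adjusted p = 0.804). In *F2*, *Serpinc1*, *Serpind1*, *F5* and *F9*, mouse 3 was the lowest of the 12 mice, and the other 3 treated mice lay closer to each other. Without mouse 3 the value of *F5* was -0.09 and that of *F2* 0.03.

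Some members did not share the low values of mouse 3. It lay within the STAM_vehicle range in 6 members (*Proz*, *Plat*, *Plau*, *Procr*, *Tfpi* and *Vwf*) and above it in 4, which follow. *F11* measured 25.98, 22.05, 44.2 and 20.7 CPM in STAM_treated mice 1 to 4, so that mouse 3 was the highest (-0.09 ± 0.27 against STAM_vehicle, adjusted p = 0.964). *F3* measured 4.67, 5.27, 9.38 and 3.06 CPM, with mouse 3 the highest of all 12 mice (0.35 ± 0.27, adjusted p = 0.790, and -0.01 without that mouse). *F7* measured 73.0, 67.4, 88.1 and 85.1 CPM (0.12 ± 0.13, adjusted p = 0.862). *Ggcx* ranged from 47.3 to 92.2 CPM in STAM_treated against 57.2 to 69.7 CPM in STAM_vehicle mice. Counted over the 33 members, mouse 3 was above the STAM_vehicle range in 4 and below it in 23, mouse 4 above in 17 and below in 7, mouse 1 above in 14 and below in 7, and mouse 2 above in 5 and below in 11. Of all genes tested, 39.2% were above and 38.3% below that range in mouse 3, and between 24.4% and 29.6% on either side in the other 3.

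**Figure D5:**
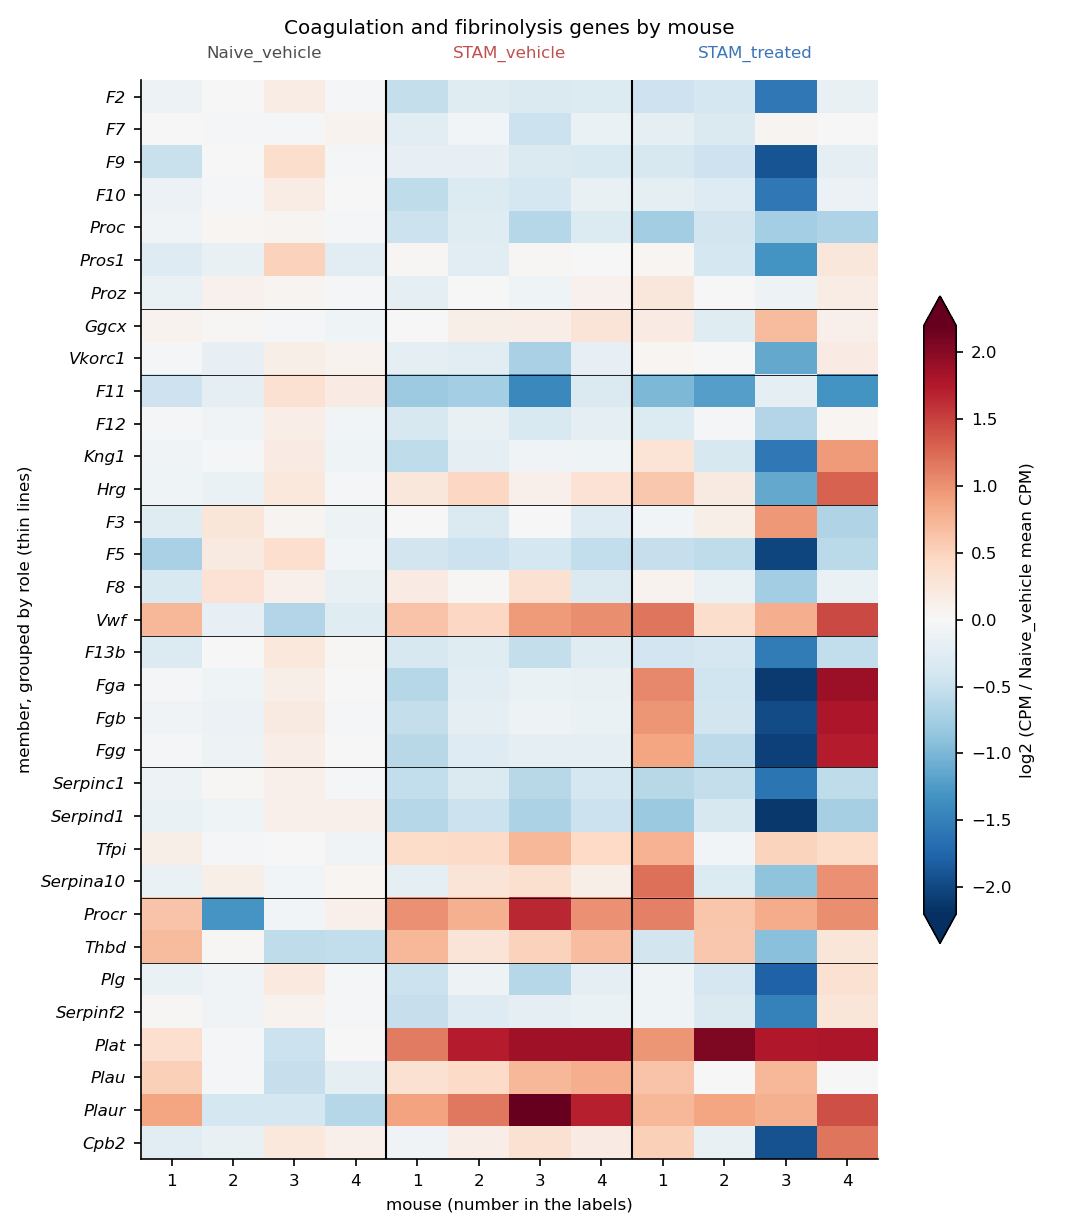
Level of each of the 33 measured members in each mouse as log2 of its CPM over the Naive_vehicle mean, members grouped by role and mice by group. The column of STAM_treated mouse 3 is blue for most liver-made members (F2 at 498 CPM), and the fibrinogen chains are red in STAM_treated mice 1 and 4.

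The receptors and activators did not pass in either direction under I-BET151. *Plaur* measured 1.26, 1.39, 1.31 and 2.02 CPM in STAM_treated mice (-0.65 ± 0.36, adjusted p = 0.665), 3 of them below every STAM_vehicle mouse. *Thbd* measured 7.48, 14.8, 5.22 and 11.9 CPM (-0.57 ± 0.32, adjusted p = 0.661), with the groups overlapping. *Plat* measured 1.75, 3.70, 3.01 and 3.03 CPM, close to STAM_vehicle (0.01 ± 0.26, adjusted p = 0.998). *Procr* measured 1.84, 1.30, 1.49 and 1.72 CPM (-0.25 ± 0.32, adjusted p = 0.891), *Plau* 3.31, 2.17, 3.55 and 2.14 CPM (-0.20 ± 0.25, adjusted p = 0.890), *Tfpi* 10.9, 6.11, 8.91 and 8.48 CPM (-0.07 ± 0.16, adjusted p = 0.954) and *Vwf* 34.5, 20.03, 26.6 and 41.8 CPM (0.22 ± 0.28, adjusted p = 0.887). All 4 overlapped with STAM_vehicle.

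Of 49 other haemostasis genes listed, 42 were tested. In STAM_vehicle against Naive_vehicle, 3 of them were called higher, beside 5.72% of all genes, and 0 lower, beside 1.38%. Thrombospondin-1 (*Thbs1*), a platelet and matrix glycoprotein, measured 1.40 to 3.19 CPM in healthy and 3.65 to 6.51 CPM in diseased livers (1.51 ± 0.28, adjusted p = 0.00668). *Anxa2*, which binds plasminogen and its activator at the cell surface, measured 8.19 to 11.5 and 16.8 to 49.9 CPM (1.51 ± 0.29, adjusted p = 0.00827). The broad protease inhibitor *A2m* measured 0.0795 to 0.255 and 0.419 to 1.39 CPM (2.33 ± 0.64, adjusted p = 0.0443). The median of the 42 was 0.16 beside 0.01 for all genes. Without STAM_treated mouse 3, 12 of the 42 were called higher, beside 12% of all genes, and 0 lower, beside 10.3%. Under I-BET151, 0 of the 42 passed by edgeR, beside 0.0951% of all genes higher and 0.256% lower. *Thbs1* measured 1.78 to 3.15 CPM in STAM_treated, below every STAM_vehicle mouse (-1.17, adjusted p = 0.149). It passed as lower without STAM_treated mouse 3, the only 1 of the 42 to do so in either direction. In that fit 1.46% of all genes were called lower and 0.914% higher.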

How the data were processed

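Liver RNA of 12 mice (4 per group) was sequenced from stranded libraries. According to the submitters' processing notes, reads were aligned with STAR 2.5.1b to mm10, and the authors deposited whole-number counts per gene without normalization. The methods name htseq-count and the file names featureCounts, and the strand setting is not given in the sources used here. Names, positions and exon lengths came from GENCODE M21 (GRCm38).

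Counts were analysed with edgeR 4.0.16 in R 4.3.3 (TMM, filterByExpr with a minimum count of 10, quasi-likelihood test, Benjamini-Hochberg). The SE is the log2 fold change divided by the square root of F. Alternatives were DESeq2 1.42.0, RLE normalization, other filters, fits of the 2 groups compared, a replicate block, lane, each mouse left out and the other comparison's threshold. The script was tested on simulated data. Within-lane differences use log2 CPM with a prior count of 2. The labels do not state more of the mice's origin than the group, so p-values measure the spread between these mice. No pair of libraries agreed within sampling noise (chi-square per degree of freedom 34.6 to 707).

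The members and lists were chosen with earlier results of these data known. Members given by mouse are those past a threshold, the 8 largest log2 fold changes of each comparison, and 17 fixed genes. Others are given by means ± SD and, for *Kng1*, *Hrg*, *Cpb2* and *Serpina10* in treated mice, values by mouse, chosen after their values were seen. Exons of 5 measured members overlap another gene: *F5*, *Fgg*, *Plg*, *Serpinc1* and, on the same strand, *Vkorc1*. Cell-type lists and their results: of 8 stellate, 5 cholangiocyte, 5 red cell and 3 tested platelet markers, none passed in either comparison by edgeR with 12 mice, nor did those of 5 tested RNAs kept in the nucleus. Without STAM_treated mouse 3, *Lrat* (stellate) and *Alas2* (red cell) passed as lower in STAM_vehicle against Naive_vehicle. *Krt7* (cholangiocyte), *Pf4* and *Itga2b* (platelet) and 2 of the nuclear RNAs (*Neat1* and *Meg3*) passed as higher. In that fit 12% of all genes were called higher and 10.3% lower. None of these markers passed for I-BET151, beside 0.914% of all genes higher and 1.46% lower.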

Additional observations from a re-analysis of the deposited data

Results flagged for a closer look

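Within a group of 4 mice, 5 of the 57 group-and-member sets examined held a mouse whose gap to its nearest neighbour exceeded Dixon's 95% limit, relative to the group's range, where chance gives about 1 in 20. STAM_treated mouse 3 was low in *F5* (172 CPM) and *Serpinc1* (619 CPM). Naive_vehicle mouse 1 (1.38 CPM) and STAM_treated mouse 4 (2.02 CPM) were high in *Plaur*, and STAM_vehicle mouse 3 was high in *Tfpi* (10.5 CPM).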

How the results depend on the processing

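In STAM_vehicle against Naive_vehicle, the count of members called higher (2, beside 5.72% of all genes) became 4 with an adjusted p of 0.1. The share of all genes at that looser threshold is not given here, so that rise cannot be set against it. The count became 4 with only the 2 groups compared (12.9% of all genes), 1 with the replicate block (3.81%), 0 with lane as a covariate (0.196%) and 5 with DESeq2 without STAM_treated mouse 3 (12.5%). The count called lower (0, beside 1.38%) became 2 with DESeq2 (2.59%), 7 with only the 2 groups (11.1%) and 9 with DESeq2 without STAM_treated mouse 3 (10.9%). Leaving out each mouse gave 1 to 4 higher and 0 to 7 lower, the 7 only without STAM_treated mouse 3 (10.3%). The 2 counts of STAM_treated against STAM_vehicle stayed at 0 except for 5 higher with DESeq2 without STAM_treated mouse 3 (4.12%) and 0 to 1 higher when a mouse was left out. The median of the members in STAM_vehicle against Naive_vehicle (-0.22) turned positive with lane (0.07) and with library totals (0.05). That of STAM_treated against STAM_vehicle (0.0014) was between -0.21 and 0.07 over all alternatives. Library totals and DESeq2 without STAM_treated mouse 3 were chosen after seeing the data.

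Of the named members, these changed sign, none of them past a threshold on either side. In STAM_vehicle against Naive_vehicle, lane gave 0.041 for *F2*, 0.32 for *F5*, 0.38 for *F9*, 0.021 for *Fgb* and 0.061 for *Plg*, and library totals gave 0.14 for *F3*, 0.046 for *F7*, 0.050 for *F9* and 0.042 for *Fgb*. In STAM_treated against STAM_vehicle, *Plat* became -0.0086 with DESeq2, -0.011 with DESeq2 without STAM_treated mouse 3, -0.067 with lane, -0.022 without a filter and -0.0039 with the replicate block. *Plg* became -0.10 with lane and -0.029 with the block, *Tfpi* 0.0057 with lane and 0.056 with library totals, *F11* 0.14 with library totals, and *F2* 0.034 and *F3* -0.0097 with DESeq2 without STAM_treated mouse 3. Leaving out a mouse took *F11* from -0.39 to 0.10, *F2* from -0.36 to 0.030, *F3* from -0.013 to 0.55, *Plat* from -0.14 to 0.18, *Plg* from -0.24 to 0.34 and *Tfpi* from -0.20 to 0.059. The cause was not tested.

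Same-numbered mice did not deviate together (mean r -0.0697 between Naive_vehicle and STAM_vehicle and -0.0623 between STAM_vehicle and STAM_treated), so the block pairs mice by number only. It changed no call but that of *Plaur*. Only 1 lane holds both healthy and vehicle mice, so lane and group are poorly separated. Members under 3 CPM per kb rest on as few as 13 counts per mouse, which limits *Procr*, *Plaur* and *Plat*.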
